A study of Mus musculus with 8 samples.

Results

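The unfolded protein response is the program by which a cell adjusts protein folding in the endoplasmic reticulum (ER). Its transducers in the ER membrane, the kinase-nuclease IRE1 (Ern1), the kinase PERK (Eif2ak3) and the transcription factor precursor ATF6, are held in check by the chaperone BiP (Hspa5) and become active when unfolded proteins accumulate. IRE1 splices the mRNA of Xbp1, ATF6 is cleaved in the Golgi by the site-1 and site-2 proteases (Mbtps1 and Mbtps2), and the resulting factors switch on chaperones and the genes of ER-associated degradation (ERAD), which sends misfolded proteins to the proteasome. Vascular smooth muscle cells secrete collagens, elastin precursors and proteoglycans, so that these folding enzymes carry a steady load in them.

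Here 10 genes of this response were followed, namely the transducers Atf6 and Xbp1, the chaperones Hspa5, Hsp90b1, Hyou1, Calr, Canx and Dnajb9, and the degradation factors Herpud1 and Edem1. Their probes were found by gene symbol. The genes were chosen with earlier results of these data known, so that counts of calls among them are a description. Of the 10 genes, 9 had a probe under their symbol, 11 probes in all, among the 18138 gene symbols of the table, and Atf6 was not analysed here. A probe entered the tests if any array detected it at p under 0.01, which left 6 genes with 7 probes, among 11651 probes and 8727 gene symbols in all.

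The RNA came from primary mouse aortic smooth muscle cells (mAoSMC), grown out of pieces of several mouse aortas and kept in culture. Cells were transfected either with a scrambled control oligonucleotide or with a moR-21 mimetic, each at 5 nM, and RNA was taken after 48 h. moR-21 is a short RNA cut from the primary transcript of miR-21, next to the mature miR-21. Each treatment had 3 samples, and a pair of Illumina arrays (A and B) was run for control sample 1 and again for moR-21 sample 3 and averaged, so that 8 arrays stood for 6 samples. The labels do not say that the 3 samples of a treatment were separate cultures or animals, and p-values then measure only the spread between these samples, which may be technical. All cells were transfected, and untransfected cells were not part of the comparison.

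The mimetic's own sequence is in none of the files used here. The arm of the Mir21a hairpin that precedes mature miR-21a-5p is shown as the annotated part of the region that gives moR-21 (RefSeq, GRCm38.p6, minus strand, chr11:86584142-86584158, 17 bases). Capitals mark the bases that the first candidate seeds considered in the study have in common. Those seeds place the capitals further from the 5′ end of moR-21 than they stand here, so the arm lacks the first base of moR-21.
Mir21a 5′ arm: uGUACCaccuugucgga

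Some genes of the response are known to carry certain promoter elements, which are shown because the response is known to act through them. RefSeq promoters (GRCm38.p6, from 250 bases before to 50 bases after the transcription start, 300 bases in all) were found for 8 of the 10 genes, all but Hyou1 and Atf6. The ER stress response element (ERSE), CCAAT and CCACG separated by any 9 bases, was searched on both strands and occurred in 39 of 32851 mouse promoters (0.119%). It occurred in Hspa5, Calr, Canx and, in 2 copies, in Hsp90b1. Each copy is printed below on the strand that reads CCAAT first, with 4 flanking bases on either side and the fixed letters of the motif in capitals.
Hspa5 (chr2:34772021-34772047, plus strand): ttcaCCAATcggaggcctCCACGacgg
Calr (chr8:84847071-84847097, plus strand): tgggCCAATgagggtcgaCCACGcgtt
Canx (chr11:50325796-50325822, minus strand): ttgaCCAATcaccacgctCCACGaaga
Hsp90b1 far copy (chr10:86705634-86705660, minus strand): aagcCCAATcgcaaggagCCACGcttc
Hsp90b1 near copy (chr10:86705529-86705555, plus strand): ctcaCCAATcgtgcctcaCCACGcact

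ERSE-II, the reverse complement of CCAAT followed by any 1 base and CCACG, is a compact form of the same element and was found in 12 of the 32851 promoters (0.0365%). Herpud1 was the only gene among the 8 that held it, with its near end 42 bases before the transcription start.
Herpud1 (chr8:94386373-94386391, plus strand): gctgATTGGgCCACGttgg
No ERSE or ERSE-II letters were found in the windows of Xbp1, Dnajb9 and Edem1. The unfolded protein response element (UPRE), searched on both strands as its core of 8 letters, was in 222 promoters (0.676%) and in none of the 8 windows. The single parts of these elements are common letters, with CCAAT in 37.4% and CCACG in 32.8% of all promoters. A match of letters is a description of the sequence and was not tested as a binding site.

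**Figure D1:**
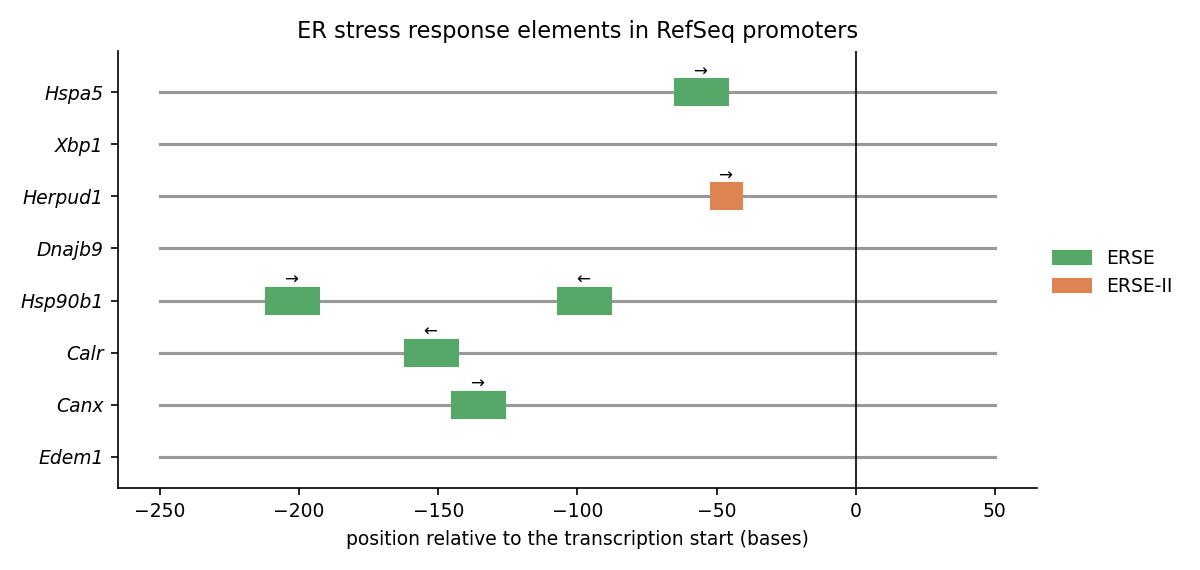
Position of ERSE (green) and ERSE-II (orange) matches in the RefSeq promoters of 8 genes, in bases from the transcription start (0), with arrows for the orientation relative to the gene. The matches of Hspa5 and Herpud1 lie nearest to the start, 47 and 42 bases before it at their near ends.

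Among the 6 genes that could be tested, Herpud1 and Xbp1 fell after the moR-21 mimetic and no gene rose. Herpud1 mRNA fell by 30.7% and Xbp1 mRNA fell by 29.2% from the level in control cells. The chaperones Hsp90b1, Calr and Dnajb9 and the degradation factor Edem1 had changes between −5.73% and 4.22%, and none of them passed the test. Fewer cells of a type and less mRNA per cell cannot be told apart in such samples. A probe was called changed at a fold change over 1.3 in either direction (0.38 on the log2 scale) and a limma adjusted p under 0.002, the cutoffs of the study. By this rule 2 of 6 genes were called lower (33.3%), where 4.38% of all tested gene symbols were called lower, and 0 of 6 were called higher, where 3.41% of all were. At an unadjusted limma p under 0.05 there were also 2 lower and 0 higher. The share of all gene symbols at that p was not counted. Of all tested probes at least 33.8% passed it, as that share had a limma adjusted p under 0.05 in either direction. In either direction 7.79% of all gene symbols were called. Counted by probe, 3 of 7 were called lower and 0 higher, where 3.85% and 3.12% of all tested probes were. An adjusted p under 0.05 with no fold cutoff picked the same 3 probes, where it picked 33.8% of all. The median log2 fold change of the 6 genes was −0.08, and that of all tested gene symbols was 0.01.

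Herpud1 is a ubiquitin-like protein of the ER membrane that helps to assemble the ERAD complex around the ligase Syvn1 and is among the genes most readily induced by ER stress. Its brighter probe, ILMN_2790241, had log2 normalized intensities of 10.28, 10.34 and 10.27 in control samples 1, 2 and 3 and of 9.79, 9.75 and 9.76 in moR-21 samples 1, 2 and 3. All 3 moR-21 samples lay below all 3 control samples, as was true in 1 direction or the other for 45.0% of all tested probes. The mean was 10.29 ± 0.037 (SD, n = 3) in control and 9.77 ± 0.023 (SD, n = 3) after moR-21. This gave a log2 fold change of −0.53 with a standard error of 0.045 and a 95% confidence interval from −0.63 to −0.43 (adjusted p = 8.95e-07, limma), a 1.44-fold fall. Counted from the largest fall, this probe ranked 216 among the 11651 tested.

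The dimmer Herpud1 probe, ILMN_2790246, read the same direction. Its log2 intensities were 9.50, 9.48 and 9.48 in the control samples and 9.01, 9.03 and 9.08 in the moR-21 samples. The groups again did not overlap, and the log2 fold change was −0.44 (standard error 0.045, limma adjusted p = 4.21e-06), a 1.36-fold fall that ranked 327. On this probe array B minus array A was −0.15 in control sample 1 and 0.16 in moR-21 sample 3, against 0.05 and 0.02 on the brighter probe, in each case less than the treatments differed.

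Xbp1 encodes the transcription factor that, once its mRNA has been spliced by IRE1, drives ERAD, protein translocation and chaperone genes. Probe ILMN_2431237 had log2 intensities of 11.01, 11.07 and 10.98 in the control samples and of 10.61, 10.38 and 10.58 in the moR-21 samples. moR-21 sample 2 was the lowest, and the groups did not overlap. The mean was 11.02 ± 0.047 (SD, n = 3) in control and 10.52 ± 0.12 (SD, n = 3) after moR-21. The log2 fold change was −0.50 with a standard error of 0.060 and a 95% confidence interval from −0.63 to −0.37 (adjusted p = 2.11e-05, limma), a 1.41-fold fall that ranked 238. The files used here do not give the place of the probe in the mRNA, so the spliced and unspliced forms of Xbp1 were not told apart. With normexp background correction the log2 fold change of Xbp1 was −0.52 but its adjusted p was 0.00206, just outside the cutoff, while Herpud1 kept its call there.

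Among the chaperones, Hsp90b1 (GRP94), the HSP90 of the ER lumen that folds integrins and Toll-like receptors, was bright and did not separate the treatments. Its log2 intensities were 10.57, 10.54 and 10.52 in the control samples and 10.45, 10.45 and 10.68 in the moR-21 samples. moR-21 sample 3 lay above every control sample and the other moR-21 samples lay below them. The log2 fold change was −0.02 (95% confidence interval −0.15 to 0.11, limma adjusted p = 0.874), and its sign turned to 0.02 without moR-21 sample 1 and without moR-21 sample 2. Arrays A and B of the same sample differed by 0.22 in control sample 1 and by 0.20 in moR-21 sample 3, more than the treatments differed.

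Calr (calreticulin), the soluble lectin that holds glycoproteins in the folding cycle and stores calcium in the ER lumen, had log2 intensities of 8.02, 8.24 and 8.13 in the control samples and 8.14, 7.91 and 8.08 in the moR-21 samples. The groups overlapped, and the log2 fold change of −0.09 (95% confidence interval −0.23 to 0.06, limma adjusted p = 0.371) did not pass the test. It ran from −0.14 without control sample 1 to −0.03 without control sample 2 and −0.02 without moR-21 sample 2. Dnajb9 (ERdj4), a J-domain cochaperone of BiP that also acts in ERAD and restrains IRE1, had log2 intensities of 7.77, 7.96 and 7.88 in the control samples and 7.84, 7.90 and 8.06 in the moR-21 samples. It was the only tested gene of the group with a mean above that of control cells, by 0.06 (95% confidence interval −0.08 to 0.19, limma adjusted p = 0.522), and without moR-21 sample 3 the difference was −0.0020.

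Edem1, a lectin-like ERAD factor that takes glycoproteins out of the calnexin cycle, was dim. Its detected probe, ILMN_1244297, had log2 intensities of 6.95, 6.99 and 6.98 in the control samples and 6.85, 6.96 and 6.90 in the moR-21 samples. The log2 fold change of −0.07 (95% confidence interval −0.17 to 0.03, limma adjusted p = 0.290) did not pass the test, and because the probe lies close to background it changed to −0.22 with normexp background correction, still without a call. A p that misses the cutoff does not show that these 4 genes were unaffected, but the intervals given for Hsp90b1, Calr and Dnajb9 lie above the 1.3-fold line for a fall, −0.38. For Edem1 that holds without background correction, and was not established with normexp, where the standard error was 0.097.

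**Figure D2:**
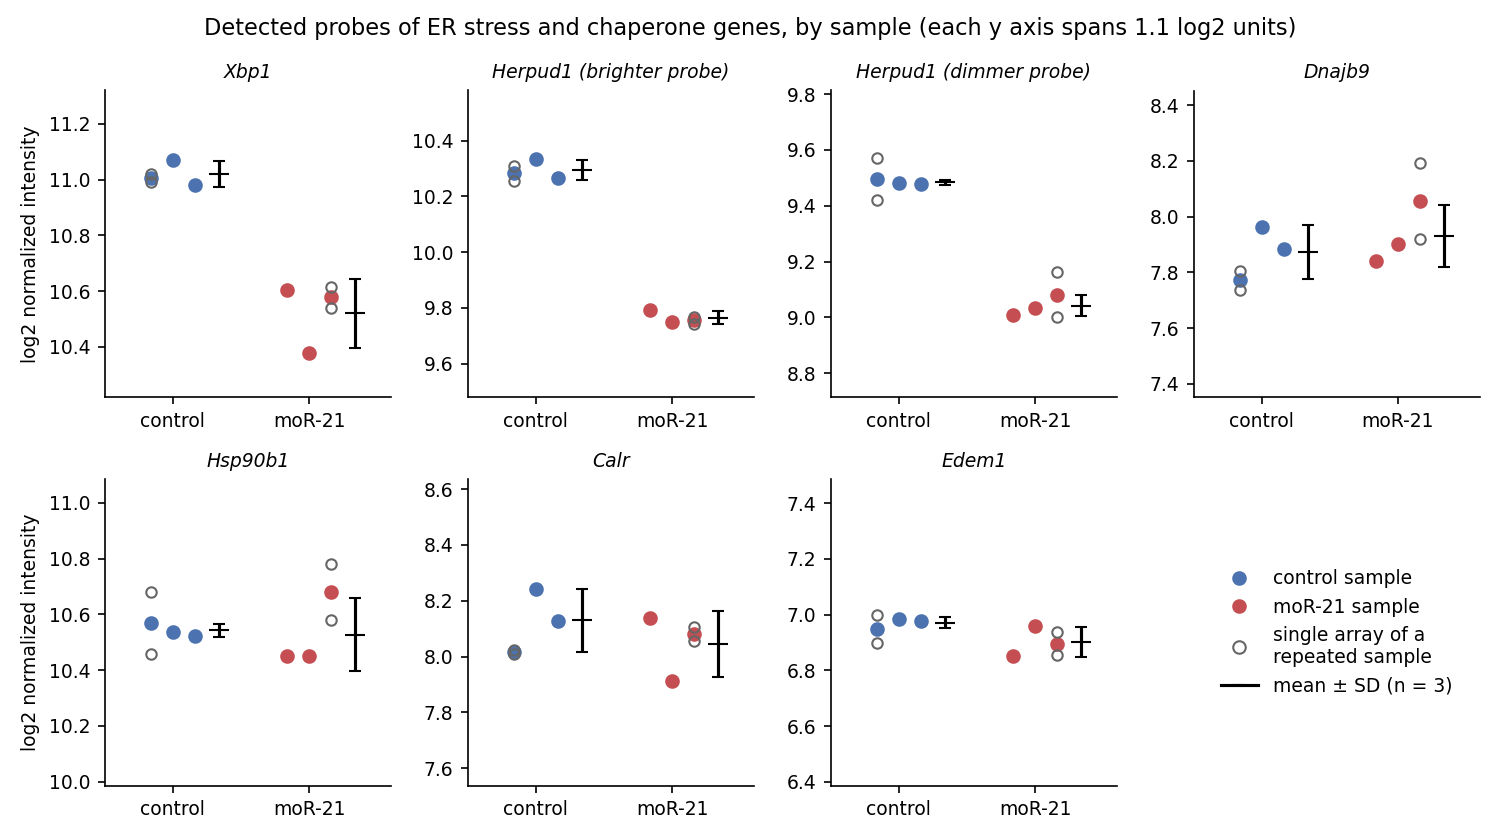
Log2 normalized intensity (y axis) of the 7 detected probes in the 3 control (blue) and 3 moR-21 (red) samples, with open circles for single arrays of the repeated samples and bars for the mean ± SD (n = 3). For Herpud1 and Xbp1 the moR-21 samples lie below all control samples, and for the other genes the groups overlap.

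BiP itself could not be read. The Hspa5 probe had an intensity between 98.3 and 109 on the 8 arrays, where the median probe of an array was between 102.5 and 109.2, and detection p-values between 0.0915 and 0.310. The probe of Canx (calnexin), the membrane-bound partner of calreticulin, was likewise not above background, with detection p-values between 0.308 and 0.596. That of Hyou1 (GRP170), a large chaperone that serves as a nucleotide exchange factor for BiP, had detection p-values between 0.0326 and 0.479. The second Edem1 probe was not above background either. No level and no change is given for these probes, each of which was under the detection limit on all 4 control and all 4 moR-21 arrays. Each of Hspa5, Canx and Hyou1 had 1 probe, so that no other reading of these mRNAs was at hand, and a dim probe does not show that the mRNA is scarce.

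The changes of Herpud1 and Xbp1 were also set against those of the uncalled genes in the same samples. These differences are a description with no test, since the genes were taken for being called or not. The change of Herpud1 differed from that of Dnajb9 by −0.59, of Hsp90b1 by −0.51, of Edem1 by −0.46 and of Calr by −0.44. For Xbp1 the corresponding differences were −0.56, −0.48, −0.43 and −0.41.

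**Figure D3:**
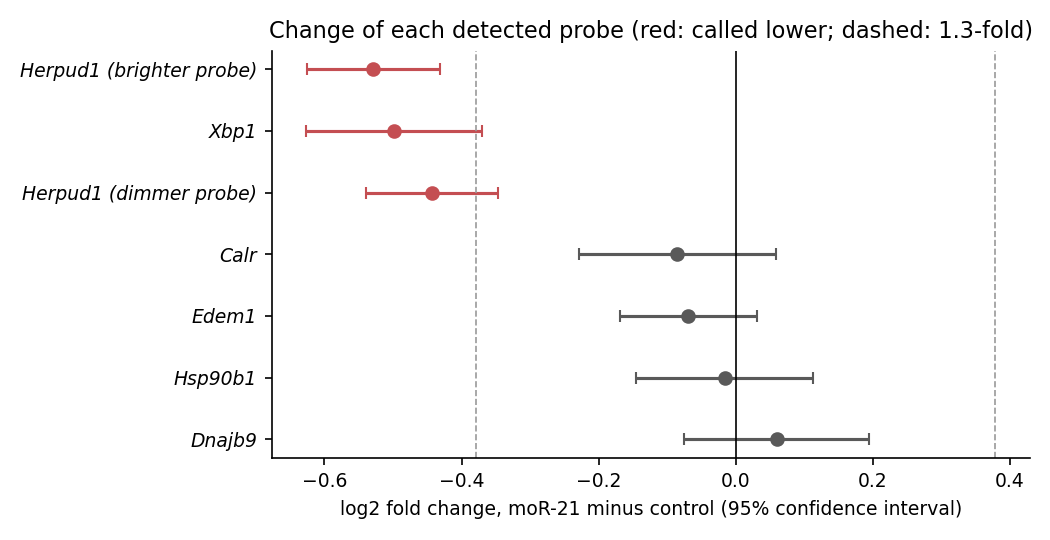
Log2 fold change (x axis, moR-21 minus control, with the 95% confidence interval from limma) of each detected probe, with dashed lines at a fold change of 1.3. Both Herpud1 probes and the Xbp1 probe are called lower (red), and the intervals of Calr, Edem1, Hsp90b1 and Dnajb9 include 0.

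The other genes of the response were read from fixed lists by role, each gene at its brightest detected probe. The lists were also chosen with earlier results known, and they hold Txndc5, which the study had reported as falling. Of 89 such genes beside the 10, 82 had a probe, 64 were tested, 10 were called lower and 1 higher, where 4.38% of all tested gene symbols were called lower and 3.41% higher. Their median log2 fold change was −0.13, and 46 lay below 0 and 18 above, where 51.8% of all tested gene symbols lay above 0. With normexp background correction 6 were called lower, and 5 of the 10 lost their call (Mbtps1, Syvn1, Prkcsh, Mogs and Txndc12). Over all tested probes normexp gave 510 called lower and 418 higher, against 448 and 363 without it.

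Among the stress transducers, 7 of 10 genes were tested, and Xbp1 and Mbtps1 were called lower and 0 higher. An unadjusted limma p under 0.05 held for 3 lower and 1 higher. At least 33.8% of all tested probes passed that p in either direction, which holds for the lists below too. The share by direction was not counted. Mbtps1, the site-1 protease that cleaves ATF6 in the Golgi, changed by −0.40 on the log2 scale (limma adjusted p = 1.88e-04), with log2 means of 8.55 ± 0.088 (SD, n = 3) in control and 8.16 ± 0.11 (SD, n = 3) in moR-21 samples. Of its dimmer probes, 1 was called at −0.41 and the other, at −0.24, was not. Mbtps1 lost the call without control sample 2 (−0.34), without moR-21 sample 3 (−0.34), with array A alone (−0.37) and on the mean of its probes (−0.35). With normexp background correction it was lost as well (−0.53, limma adjusted p = 0.0039). Mbtps2, the site-2 protease, was at −0.03 and Atf6b, the paralog of Atf6, at −0.08, neither with a call. The largest value above 0 was 0.15, that of Creb3, a relative of ATF6, which was not called. Ern1 was not detected, and Eif2ak3 was not analysed here.

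Genes for translocation and folding that XBP1 and ATF6 are known to control were tested in 17 of 28 cases, with a median of −0.06. There were 6 lower and 3 higher at an unadjusted limma p under 0.05, and 2 were called lower and 0 higher. Those called were Sec63 (log2 fold change −0.58, limma adjusted p = 5.16e-07), which recruits BiP to the translocation channel, and Sec61a1 (−0.58, limma adjusted p = 4.50e-07), the pore of that channel. A second Sec63 probe was also called, at −0.60. The small channel subunits Sec61b (−0.13) and Sec61g (0.22) were not called, and Sec61g had the largest value above 0 in the list, which was 0.07 without moR-21 sample 2. Next to it stood Ssr3 (0.22), a subunit of the translocon-associated complex, also not called. Serp1, which stabilizes membrane proteins during translocation, had a log2 fold change of −0.33, under the fold cutoff. Dnajc3 (−0.15), a BiP cochaperone, and Creld2 (0.0004), an ER stress-induced protein, were not called.

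In the ERAD list 15 of 20 genes were tested, and 14 of the 15 lay below 0, with a median of −0.14. By the limma test 2 passed as lower and 1 as higher, and at an unadjusted limma p under 0.05 there were 9 lower and 1 higher. Over all tested probes at least 33.8% passed that unadjusted p in either direction. Derl2, a channel-forming protein of the ERAD complex, fell by 0.78 on the log2 scale (limma adjusted p = 6.09e-08), from 8.13 ± 0.078 to 7.35 ± 0.036 (SD, n = 3 each). With normexp background correction the fall of Derl2 was −1.31. Syvn1 (HRD1), the ubiquitin ligase that Herpud1 binds, fell by 0.38 (limma adjusted p = 7.08e-05) and lay at the fold cutoff. Its call was lost without control sample 1 (−0.36), without control sample 2 (−0.36) and without moR-21 sample 2 (−0.35). It was also lost with array B alone (−0.35) and with normexp background correction (−0.40, limma adjusted p = 0.00481). Selenos, a selenoprotein that links the ERAD complex to the ATPase Vcp, was the gene that rose, by 0.45 (limma adjusted p = 3.44e-06), and its dimmer probe stood at 0.33 without a call. Sel1l (−0.11), the partner of Syvn1, Os9 (−0.25), a lectin of that complex, Vcp (−0.08) and the Herpud1 paralog Herpud2 (−0.03) were not called.

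Of the calnexin and calreticulin cycle, 7 of 10 genes were tested and 2 were called lower and 0 higher. An unadjusted limma p under 0.05 held for 4 lower and 1 higher. Prkcsh, the regulatory subunit of glucosidase II, changed by −0.41 (limma adjusted p = 1.22e-05) and Mogs, glucosidase I, by −0.42 (limma adjusted p = 4.43e-04). These enzymes trim the glucose residues from new glycoproteins before calnexin and calreticulin bind them. Ganab, the catalytic subunit of glucosidase II, was at −0.33, under the fold cutoff, and Man1b1, a mannosidase, had the largest value above 0, 0.26 without a call. Prkcsh lost its call with normexp background correction (−0.42, limma adjusted p = 0.00213). Mogs lost its call with normexp, with median scaling, with no detection filter, with all 8 arrays tied by duplicateCorrelation (−0.36), and without control sample 2 (−0.40), control sample 3 (−0.37), moR-21 sample 1 (−0.37) or moR-21 sample 2 (−0.38).

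Among the protein disulfide isomerases, 10 of 12 were tested, 3 were called lower and 0 higher, and the median was −0.07. An unadjusted limma p under 0.05 held for 5 lower and 1 higher. Txndc5, on which the study centres, fell by 2.02 on the log2 scale, Tmx4 by 0.82 and Txndc12 by 0.39. The paper reports Txndc5 as a direct target of moR-21, from reporter, seed mutant, antisense and sponge experiments. The adjusted p of Txndc12 was 0.00199, at the edge of the cutoff, and its call was lost with normexp (−0.66), with median scaling, with no detection filter, with array B alone (−0.34), in the fit on the mean of each gene's probes, and without control sample 1 (−0.35), control sample 3 (−0.33) or any 1 of the 3 moR-21 samples (−0.33, −0.40 and −0.44). Pdia4, an isomerase of the ER lumen, had the largest value above 0, 0.13, and was not called.

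The PERK arm is the branch that slows translation and raises the transcription factors ATF4 and CHOP (Ddit3). The list of 14 genes read for it also holds Ern1 (IRE1), which is a separate transducer and was not detected. Of the 14, 11 were tested, and limma called 0 lower and 0 higher, with a median of −0.13. An unadjusted limma p under 0.05 held for 6 lower and 1 higher. Trib3, a pseudokinase induced by CHOP, had the lowest value, −0.37, just under the fold cutoff. Its other detected probes read −0.06 and −0.13, and the mean of its probes −0.19. On the brightest probe it was called without control sample 3 (−0.41), without moR-21 sample 2 (−0.44), under cyclic loess (−0.38) and with duplicateCorrelation (−0.39). Atf4 (−0.26), Ddit3 (−0.16), Chac1 (−0.24) and Asns (−0.21) were not called, and Sesn2 had the largest value above 0, 0.10.

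For comparison, the heat shock proteins of the cytosol and mitochondria are under a different control, that of HSF1. Of 15 such genes 11 were tested, with 1 called lower, Hsph1 (−0.45), and 0 called higher. An unadjusted limma p under 0.05 held for 3 lower and 3 higher. The median was −0.01 and turned to 0.05 under median scaling and 0.03 under cyclic loess. Hsph1 lost its call with normexp (limma adjusted p = 0.00267) and with median scaling (limma adjusted p = 0.00322). Cryab had the largest value above 0, 0.21, without a call. The difference between this list and those of the ER was not tested.

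**Figure D4:**
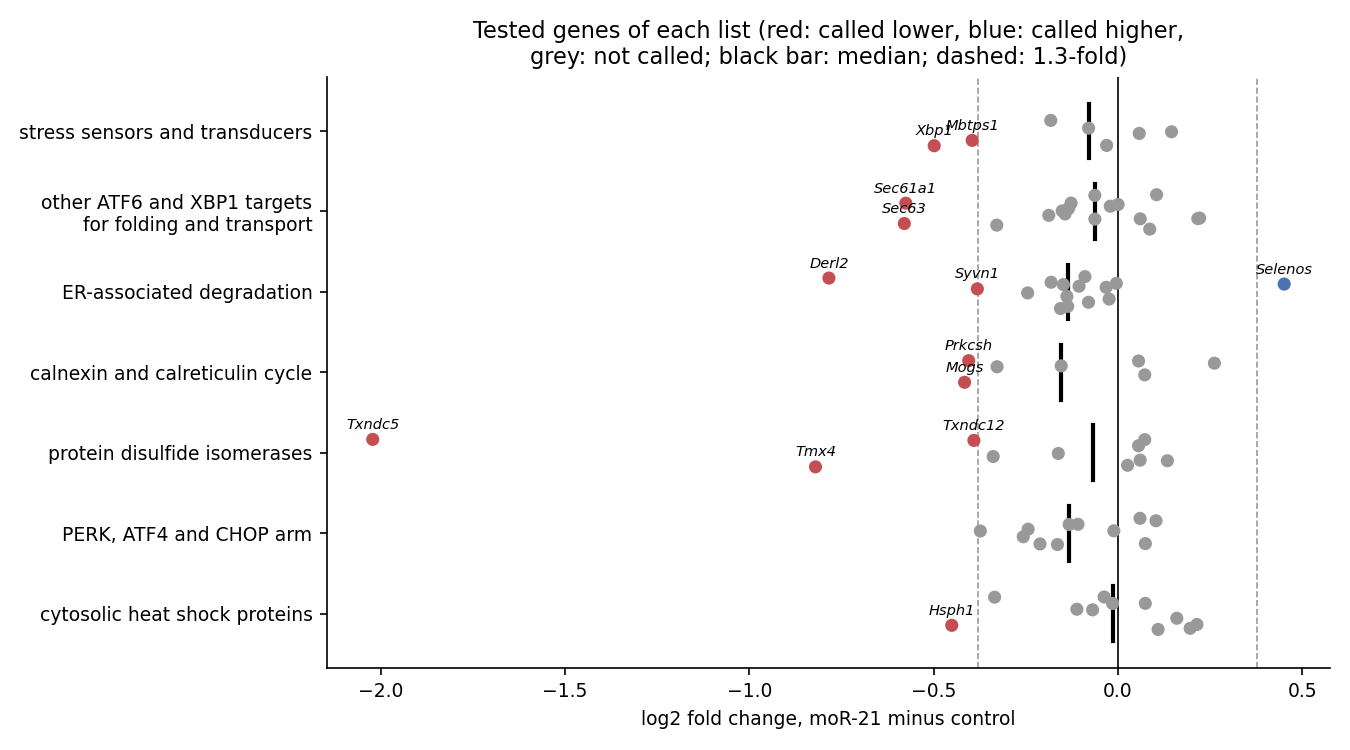
Log2 fold change (x axis, moR-21 minus control) of each tested gene in 7 lists (rows), with black bars at the list medians and dashed lines at a fold change of 1.3. Red genes were called lower and blue ones higher, 46 of the 64 tested ER genes beside the 10 lie to the left of 0, and Selenos is the gene called higher.

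The expression patterns most like those of Herpud1 and Xbp1 were sought over the 6 samples among the 8726 other tested gene symbols, as a description. For Herpud1 the 4 genes with the highest Pearson correlation were Zfp532, Cited4, Thumpd1 and 2410014A08Rik, each with r of 0.999. Their log2 fold changes ran from −0.65 for Thumpd1 to −0.29 for Zfp532. For Xbp1 the 5 highest were Wwp2, Cfp, Ddx17, Mapre2 and Pdpk1, with r between 0.995 and 0.998 and log2 fold changes from −0.48 for Mapre2 to −0.20 for Ddx17. None of these genes is in the lists above. With 6 samples in 2 treatments, such values largely restate which genes differ between the treatments. Hspa5 was not detected, and no pattern was sought for it.

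The labels name the cells both as aortic smooth muscle cells and, in the sample descriptions, by an abbreviation of another cell type, so markers were checked. Of 10 smooth muscle markers 7 were detected, Myh11, Cnn1 and Myocd not, and of 6 endothelial markers only Vwf was, near background. Tagln and Lmod1 were as near background as Vwf, with control log2 means of 6.74, 6.79 and 6.89. Of the 7 smooth muscle markers 5 lay above 0, with only Acta2 called higher (0.40). Its dimmer probes were also called, at 0.64, 0.73 and 0.81. Below 0 lay 2, Des and Smtn. Des (−0.38, limma adjusted p = 8.6e-05) fell just short of the fold cutoff, and Smtn (−0.05) was not called. The summed intensity of the smooth muscle markers was 10640 to 11020 in control and 13440 to 14320 in moR-21 samples, mostly from Acta2, and that of 4 fibroblast markers was 16390 to 17200 and 13610 to 14610. That of 2 detected mesothelial markers was 771 to 780 and 402 to 416, mostly from Upk3b, and that of 3 macrophage markers was 1622 to 1688 and 1465 to 1498. The last sum is mostly Cd14 (−0.27, not called), while Lyz2 of the same list was called higher (0.48) and Csf1r was at −0.01. All 4 detected fibroblast markers lay below 0, with only Lum called lower (−0.56). Upk3b was called lower on each detected probe (−1.24, −0.81 and −1.19), and Krt19 (−0.13) was not called. The summed intensities move with the treatment, as Herpud1 and Xbp1 do, and the part of the markers in the falls of Herpud1 and Xbp1 was not tested.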

How the data were processed

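For each probe and array the authors deposited a non-normalized intensity, read with BeadStudio from Illumina mouse arrays, and a detection p-value against negative control beads, deposited beside it. No background correction is stated. The submitters' processing notes name lumi. Every column was assigned to a sample by its name. The precision is limited by the number of samples.

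Quantile normalization was run over the 8 arrays, log2 values were averaged over the arrays of a sample, and limma 3.58.1 in R 4.3.3 (lmFit and eBayes, no covariate) was fitted to every probe that 1 or more arrays detected at p under 0.01. The Benjamini-Hochberg adjustment ran over all of them. Genes were read at the brightest detected probe, and probe levels were not compared between genes. Named were all 10 genes at every probe, Txndc5, and in each list the called genes and the largest rise and fall; other list genes were named after their values were seen. The lists were matched by symbol or synonym in RefSeq (GRCm38.p6). The members and lists were chosen with earlier results of these data known. The alternatives were normexp correction (offset 16), median scaling, cyclic loess, a stricter and no detection filter, array A or B alone, all 8 arrays tied by duplicateCorrelation, a block for the replicate number, eBayes with trend and robust options, other cutoffs, the mean of a gene's probes, and each sample left out. The fit was tested on simulated data. A planned look at ER retention signals in the proteins was not run. For 1 gene that the naming rule picked, the result is not reported here.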

Additional observations from a re-analysis of the deposited data

How the results depend on the processing

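Herpud1 kept its direction and call under all alternatives but a fold cutoff of 1.5, where its log2 fold changes of −0.53 and −0.44 (dimmer probe) fell short, and Xbp1 (−0.50) fell short there and, at −0.52, with normexp background correction. The number of the 10 genes called lower was thus 0 and 1 in these settings and 2 in the 17 others, and 0 were called higher in each of the 19. Over the samples left out in turn Herpud1 stayed between −0.54 and −0.51 and Xbp1 between −0.54 and −0.43. The genes without a call stayed uncalled, with Dnajb9 up to 0.1164 (array B alone; 0.106 without moR-21 sample 1) and Hsp90b1 down to −0.0923 (without moR-21 sample 3), while Dnajb9 changed sign without moR-21 sample 3 (−0.0020) and Hsp90b1 without moR-21 sample 1 (0.0221), without moR-21 sample 2 (0.0217) and with all 8 arrays tied by duplicateCorrelation (0.0086). Of the 89 listed genes, 6 were called lower with normexp correction, 5 of them among the 10 called without it. A fold cutoff of 1.5 left 3 lower and 0 higher, and an adjusted p under 0.05 with no fold cutoff gave 27 lower and 5 higher. Over all probes the same cutoffs gave 174 lower and 86 higher, and 1860 lower and 2083 higher, against 448 and 363. With normexp correction the counts over all probes were 510 lower and 418 higher. The replicate numbers 1, 2 and 3 of the labels gave correlations of the deviations of 0.187, 0.0441 and 0.0597. The best other number gave −0.0582, −0.00979 and 0.0693. These low values do not settle whether the samples were paired, and the main fit did not pair them. With the replicate number as a block Herpud1 (−0.53) and Xbp1 (−0.50) stayed called. With 3 samples a group, only changes well above a standard error of about 0.05 can be called, and dim probes near background understate a change.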

Other observations

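The ERSE and ERSE-II matches also picked out genes beyond those described above, and their readings are given as values, chosen after the promoters had been searched. The 39 promoters with an ERSE belong to 37 gene symbols, of which 20 had a probe and 10 were tested. Of these 10, limma called 1, Syvn1, which was lower, where 4.38% of all tested gene symbols were called lower and 7.79% in either direction, and the median log2 fold change was −0.05. Alg12 (−0.09), a mannosyltransferase that builds the glycan precursor in the ER, and Ero1b (0.10), an oxidase that recharges disulfide isomerases, were not called, and Pan2, a subunit of a deadenylase, was at −0.29 under the fold cutoff. Pdia6 and Derl3, whose promoters hold an ERSE as well, were not detected. The 12 promoters with an ERSE-II belong to 12 gene symbols, of which 7 were tested. Herpud1 was the 1 called, a count too small to read against those shares, and Nucb1 (−0.20), a calcium-binding protein of the Golgi, Lgalsl (−0.27), Krtcap2 (0.19), a subunit of the oligosaccharyltransferase, and Lrif1 (0.19) were not called.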
